A study of Mus musculus with 6 samples.

Results

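The genes described here are 10 genes of endothelin and nitric oxide (NO) synthesis, measured by RNA-Seq in bone marrow mesenchymal stem cells (BM MSCs) of ovariectomized mice. They were chosen by symbol for their known roles, and each of the 10 symbols had a row of its own among the 56980 gene rows of the deposited table. Endothelin-1 is a short peptide, made as a precursor from *Edn1*, trimmed to its active form by the protease ECE1 and sensed by the G protein-coupled receptors EDNRA and EDNRB. NO is a gas made from arginine by the 3 nitric oxide synthases, neuronal NOS1, inducible NOS2 and endothelial NOS3, which need the cofactor tetrahydrobiopterin, whose synthesis starts with GCH1. Asymmetric dimethylarginine (ADMA) blocks these synthases, and the hydrolase DDAH1, to which DDAH2 is related, breaks it down. In blood vessels, endothelin-1 acting on smooth muscle constricts and NO relaxes, and endothelial cells are the best known source of both.

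All 6 samples came from female mice that were ovariectomized at 8 weeks of age, which removes ovarian estrogen, and given antibiotics before fecal microbiota transplantation (FMT) for 8 weeks. The 3 samples of the TranspCtrl group came from recipients of stool of sedentary ovariectomized donors, and the 3 of the TranspExer group from recipients of stool of ovariectomized donors trained on a treadmill for 8 weeks. The comparison asks how the transplanted stool of exercised donors changes gene expression in the recipients' marrow cells. Marrow was flushed from femurs and tibias and cultured for 7 days, no sort of the cells is described, and the strain is not given in the sources used here. Nothing says that the samples came from separate animals or cultures, so the p-values measure only the spread between these samples, which may be technical.

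Total counts lay between 17647638 and 21319166 per sample, and 15190 genes passed the low-count filter. TranspCtrl replicate 1 stood apart from the rest of its group: the mean chi-square per gene was 53.8 and 48.6 against the other TranspCtrl samples but 3.59 between those, and 4.28 to 7.43 between TranspExer samples. The stromal genes *Col1a1*, *Col1a2* and *Cxcl12* were well expressed, but the libraries also held *Lyz2*, a myeloid lysozyme, at 6412 ± 2336 CPM (counts scaled to library size; SD, n = 3) in TranspCtrl and 2910 ± 320 in TranspExer. Transcripts of other marrow cells were thus present beside those of the labelled cell type. Of the stromal markers none was at 0 in all samples, *Pdgfra* was at 112 ± 3.96 and 55.8 ± 0.652 CPM, and *Lum* was low, at 2.00 ± 0.667 and 0.234 ± 0.123 CPM. In such bulk samples, fewer cells of a type and less RNA per cell cannot be told apart.

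*Edn1* was the member with the largest rise, at 2.73-fold, and *Nos3* followed at 2.14-fold. These were the only members past both an adjusted p of 0.05 and a fold change of 2 in edgeR (its quasi-likelihood test, p-values adjusted over all tested genes by Benjamini-Hochberg). Among the 15190 genes tested, 3.5% were upregulated by that rule and 5.28% were downregulated. No member was downregulated by it, by edgeR or by DESeq2, while at an unadjusted p under 0.05 in edgeR 3 members were lower, against 22% of all genes, and 6 higher, against 22.3%. By adjusted p alone, 5 of the 9 tested members rose (*Edn1*, *Nos3*, *Nos2*, *Ece1* and *Ddah1*), against 16.6% of all genes, and 1 fell (*Ddah2*), against 15.5%. *Ednra*, *Ednrb* and *Gch1* missed that threshold and *Nos1* was too low to test.

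**Figure D1:**
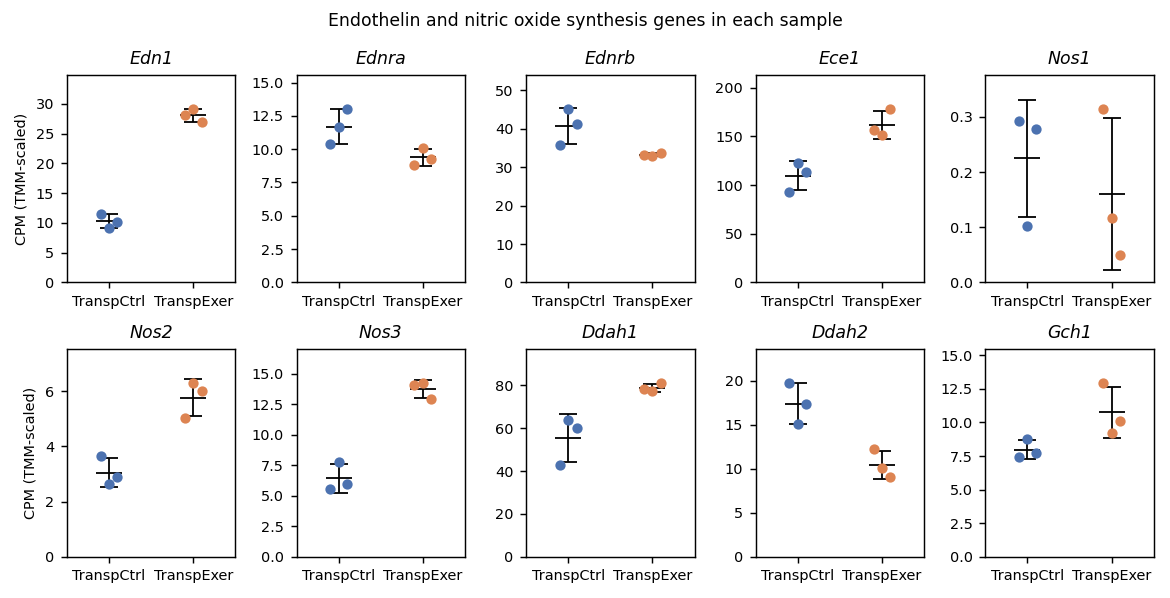
Each panel shows 1 gene in the 6 samples, as CPM scaled with TMM factors on a linear axis that starts at 0. Points are samples, and bars are the mean ± SD (n = 3 per group). *Edn1* lay between 9.19 and 11.5 CPM in TranspCtrl and between 26.9 and 29.1 in TranspExer, while the *Nos1* values of the groups overlapped, with none above 0.314 CPM.

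The groups did not overlap for any of the 9 tested members. For 6 of them every TranspExer sample was above every TranspCtrl sample, against 27.2% of all tested genes, and for 3 every TranspExer sample was below, against 25.1%. The median log2 fold change of the tested members was 0.50, beside -0.02 for all tested genes.

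**Figure D2:**
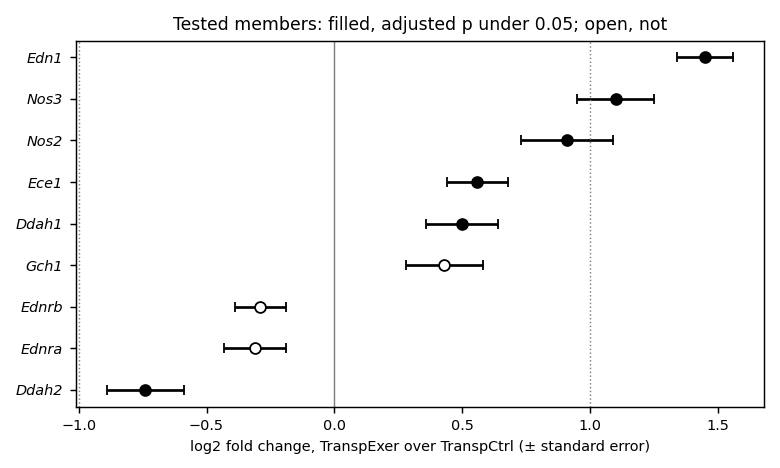
The log2 fold change of TranspExer over TranspCtrl is plotted for the 9 tested members, with bars of ± 1 SE from edgeR and dotted lines at a 2-fold change. *Edn1*, at 1.45, and *Nos3*, at 1.10, are the points beyond the line on the right, and *Ddah2*, at -0.74, is the lowest.

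*Edn1* and *Ddah2* carry the largest rise and the only fall past the test, so their promoters are shown, from 250 bases before to 50 after the start of transcription. Both are RefSeq windows of the build GRCm38.p6 on the plus strand, *Edn1* at chr13:42301226-42301525 and *Ddah2* at chr17:35058785-35059084, written 5′ to 3′. Capitals mark matches to GATAA, the core that GATA factors bind, to ACGTG, the core of hypoxia response elements, and to CCACCC, a core of KLF sites, searched on both strands.
Edn1: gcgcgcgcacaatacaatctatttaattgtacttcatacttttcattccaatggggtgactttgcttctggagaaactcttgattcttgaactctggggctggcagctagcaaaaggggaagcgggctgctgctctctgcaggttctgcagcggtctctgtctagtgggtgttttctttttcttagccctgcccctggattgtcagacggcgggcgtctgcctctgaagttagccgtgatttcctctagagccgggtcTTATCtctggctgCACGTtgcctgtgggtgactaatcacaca
Ddah2: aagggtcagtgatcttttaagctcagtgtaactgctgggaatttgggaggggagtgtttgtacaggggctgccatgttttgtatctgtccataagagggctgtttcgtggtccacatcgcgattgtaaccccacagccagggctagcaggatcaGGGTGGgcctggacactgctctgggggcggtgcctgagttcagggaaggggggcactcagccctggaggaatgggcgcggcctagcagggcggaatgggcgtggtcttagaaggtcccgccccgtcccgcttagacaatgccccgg
In *Edn1* the GATAA and ACGTG matches were on the minus strand, just after the start, and in *Ddah2* the CCACCC match was on the minus strand before it. Of the 32851 promoter windows in the RefSeq table, 25.4% held GATAA, 19.6% ACGTG and 31.5% CCACCC on either strand, so these matches are common. Of the 10 members, 8 matched that table, all but *Nos2* and *Nos3*, with 11 windows in all and several for *Ece1*. Besides *Edn1*, ACGTG was in a window of *Ece1*, and besides *Ddah2*, CCACCC was in windows of *Ece1*, *Ednrb* and *Gch1*. TATAAA was in the window of *Gch1*, 188 bases before the start on the strand opposite to the gene, against 13.6% of all windows. An NF-kappaB motif of 10 bases was in a window of *Ece1* and in that of *Nos1*, against 1.63% of all windows. Those windows, at chr4:137913308-137913607 and chr5:117866589-117866888, lie inside the genes, past the gene starts given below. TGANTCA, a palindromic core of AP-1 sites held by 7.81% of all windows, had no exact match in a window of a member. Only exact words were searched, so variant sites of any of these factors were not counted.

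The ligand gene *Edn1* (ENSMUSG00000021367, chr13:42301476-42307990, plus strand) was measured at 11.5, 9.19 and 10.2 CPM in the TranspCtrl samples and at 28.2, 29.1 and 26.9 CPM in the TranspExer samples. The lowest TranspExer sample was well above the highest TranspCtrl sample, and the samples within a group lay close together. The mean rose from 10.3 ± 1.15 to 28.1 ± 1.13 CPM (SD, n = 3 per group), a log2 fold change of 1.45 ± 0.11 (SE) with an adjusted p of 0.000103 in edgeR. By p, *Edn1* ranked 129 of the 15190 genes. Counts behind these values numbered 179 to 235 in TranspCtrl and 501 to 541 in TranspExer.

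*Ece1* (ENSMUSG00000057530, chr4:137862237-137965229, plus strand), whose protease releases the active peptide, was at 93.4, 123 and 113 CPM in TranspCtrl and 157, 151 and 178 CPM in TranspExer. Every TranspExer sample was above every TranspCtrl sample, and TranspCtrl replicate 1 was the lowest of all. Its log2 fold change was 0.56 ± 0.12 (SE), or 1.48-fold, with an adjusted p of 0.00963 in edgeR. The rise was thus past the test but under the fold threshold of 2.

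The receptors did not rise with the ligand. *Ednra* (ENSMUSG00000031616, chr8:77663031-77724464, minus strand), which on vascular smooth muscle mediates constriction, was at 10.4, 11.7 and 13.0 CPM in TranspCtrl and 8.84, 10.1 and 9.29 CPM in TranspExer. *Ednrb* (ENSMUSG00000022122, chr14:103814625-103844402, minus strand), which endothelial cells use to clear endothelin-1 and to trigger NO release, was at 35.7, 45.1 and 41.3 CPM in TranspCtrl and 33.2, 32.8 and 33.6 CPM in TranspExer. For both receptors the TranspExer samples were all below the TranspCtrl samples, for *Ednra* by a narrow gap, and TranspCtrl replicate 1 was the nearest to them. The log2 fold changes were -0.31 ± 0.12 (SE; adjusted p = 0.0884, edgeR) for *Ednra* and -0.29 ± 0.10 (adjusted p = 0.0512) for *Ednrb*. Without TranspCtrl replicate 1 both passed, at -0.39 with an adjusted p of 0.0132 and at -0.38 with an adjusted p of 0.000584 in edgeR.

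*Ednra* made up 17.4 ± 1.39% of the summed receptor level per kb of gene model in TranspCtrl and 17.2 ± 1.04% in TranspExer (exact permutation test, two-sided, p = 0.9; n = 3 per group). The balance of the receptor types was not shown to differ, and 3 samples against 3 cannot give a p under 0.1. Per kb, *Edn1* transcript relative to the sum of both receptors was 0.33, 0.214 and 0.25 in TranspCtrl and 0.887, 0.903 and 0.829 in TranspExer, a ratio chosen after its values were seen and given with no test. The deposited lengths of the receptors are shorter than their merged exons in the annotation, and with merged exons the ratio was 0.522, 0.338 and 0.395 in TranspCtrl and 1.40, 1.43 and 1.31 in TranspExer. The ratio was higher in each TranspExer sample by either length, but whether ligand or receptor transcript was the higher in TranspExer depended on the length used.

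*Nos3* (ENSMUSG00000028978, chr5:24364810-24384474, plus strand), the endothelial synthase, was at 5.52, 7.80 and 6.00 CPM in TranspCtrl and at 14.1, 14.2 and 12.9 CPM in TranspExer. The groups were far apart, and the means were 6.44 ± 1.21 and 13.8 ± 0.734 CPM (SD, n = 3 per group). The log2 fold change was 1.10 ± 0.15 (SE) with an adjusted p of 0.0014 in edgeR. Without TranspCtrl replicate 1 it came to 1.00, just under the fold threshold. Exons of *Atg9b*, an autophagy gene on the opposite strand, overlap those of *Nos3*, and it had 13 to 27.1 counts in each sample against 113 to 270 for *Nos3*. Counting reads of *Nos3* and its overlapping gene models together gave a log2 fold change of 1.03 with an adjusted p of 0.000912 in edgeR.

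*Nos2* (ENSMUSG00000020826, chr11:78920787-78960254, plus strand), the synthase that immune stimuli induce in macrophages, was at 3.66, 2.62 and 2.88 CPM in TranspCtrl and 5.02, 6.28 and 6.01 CPM in TranspExer. All TranspExer samples were above all TranspCtrl samples, at 51 to 75 counts against 96 to 121. Its log2 fold change of 0.91 ± 0.18 (SE), or 1.89-fold, had an adjusted p of 0.0077 in edgeR and fell short of 2-fold. Without TranspCtrl replicate 1 the log2 fold change was 1.06 with an adjusted p of 0.000423, past both thresholds.

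*Nos1* (ENSMUSG00000029361, chr5:117781032-117958840, plus strand), the neuronal synthase, was at 6, 2 and 6 counts in the TranspCtrl samples and 6.44, 2.43 and 1 in the TranspExer samples. It was below the low-count filter, its groups overlapped, and at this depth, where 3 counts equal 0.139 to 0.174 CPM, no difference was detectable. Of the summed synthase level per kb, *Nos3* made up 66.4 ± 7.87% in TranspCtrl and 70.2 ± 2.41% in TranspExer (exact permutation test, two-sided, p = 0.5), and *Nos2* 31.4 ± 6.90% and 29.0 ± 3.05% (exact p = 0.7). *Nos3* was thus the leading synthase transcript in each group, and no difference in its share was detectable with 3 samples a group.

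The genes *Ddah1* and *Ddah2* moved in opposite directions. *Ddah1* (ENSMUSG00000028194, chr3:145758675-145894277, plus strand) was at 42.8, 63.7 and 60.3 CPM in TranspCtrl and at 78.4, 77.3 and 80.9 CPM in TranspExer, with TranspCtrl replicate 1 the lowest. It rose by a log2 fold change of 0.50 ± 0.14 (SE; adjusted p = 0.0279, edgeR). That call was lost without TranspExer replicate 1, 2 or 3, with log2 fold changes of 0.50, 0.51 and 0.47 and adjusted p values of 0.0787, 0.0774 and 0.0942, while without TranspCtrl replicate 1 the log2 fold change was 0.35 with an adjusted p of 0.000353. The pseudogene *Rpl36a-ps2* lies in an intron of *Ddah1* on the same strand and does not overlap its exons. It had 1915, 789 and 995 counts in the TranspCtrl samples and 716, 506 and 566 in the TranspExer samples. Any part of its reads in the values of *Ddah1* was not tested.

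*Ddah2* (ENSMUSG00000007039, chr17:35059035-35062095, plus strand) was at 19.7, 15.1 and 17.4 CPM in TranspCtrl and at 12.2, 10.1 and 9.04 CPM in TranspExer. Every TranspExer sample was below every TranspCtrl sample, and it was the only member that fell past the test, by 0.74 on the log2 scale (SE 0.15; adjusted p = 0.00833, edgeR). The *Ddah1* share of the summed DDAH level per kb was 43.7%, 60.1% and 55.3% in TranspCtrl and 69.6%, 73.2% and 76.1% in TranspExer. The groups did not overlap, and the mean share went from 53.0 ± 8.42% to 73.0 ± 3.26% (exact permutation test, two-sided, p = 0.1, the smallest that 3 against 3 can give). By read counts, not divided by length, the mean share was higher by 12.6 percentage points.

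*Gch1* (ENSMUSG00000037580, chr14:47153895-47189413, minus strand), which sets the rate of tetrahydrobiopterin synthesis, was at 7.42, 8.78 and 7.72 CPM in TranspCtrl and 12.9, 9.24 and 10.1 CPM in TranspExer. The groups did not overlap, but the gap was narrow and TranspExer replicate 1 was well above the other 2. The log2 fold change of 0.43 ± 0.15 (SE) had an adjusted p of 0.0639 in edgeR. Without TranspExer replicate 1 it was 0.27 with an adjusted p of 0.211.

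Levels of different genes were compared as CPM per kb of the deposited gene length. In TranspCtrl the order was *Ece1* (22.8 ± 3.12), *Ednrb* (15.3 ± 1.76), *Ddah1* (14.8 ± 2.97), *Ddah2* (13.0 ± 1.71), *Edn1* (4.81 ± 0.536), *Ednra* (3.22 ± 0.362), *Gch1* (2.87 ± 0.257), *Nos3* (1.56 ± 0.292), *Nos2* (0.729 ± 0.129) and *Nos1*. The ranges of *Ednrb*, *Ddah1* and *Ddah2* ran into each other, as did those of *Ednra* and *Gch1*, so the order within these is not resolved. In TranspExer *Ece1* (33.7 ± 3.01) was still the highest, followed by *Ddah1* (20.9 ± 0.487) and then by *Edn1* (13.1 ± 0.527) and *Ednrb* (12.4 ± 0.149), whose ranges overlapped. *Edn1* thereby went from rank 5 to rank 3 of the members, as it also did with merged exon lengths. *Ddah2* (7.79 ± 1.19) came next, then *Gch1* (3.87 ± 0.684) and *Nos3* (3.33 ± 0.178) with overlapping ranges, *Ednra* (2.59 ± 0.169), *Nos2* (1.38 ± 0.158) and *Nos1*. With merged exon lengths in place of the deposited ones, *Ednrb* stood behind *Ddah1* and *Ddah2* in TranspCtrl, *Gch1* stood behind *Nos3* in each group, and in TranspExer *Edn1* (12.6 to 13.6) no longer overlapped *Ednrb* (7.70 to 7.88).

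**Figure D3:**
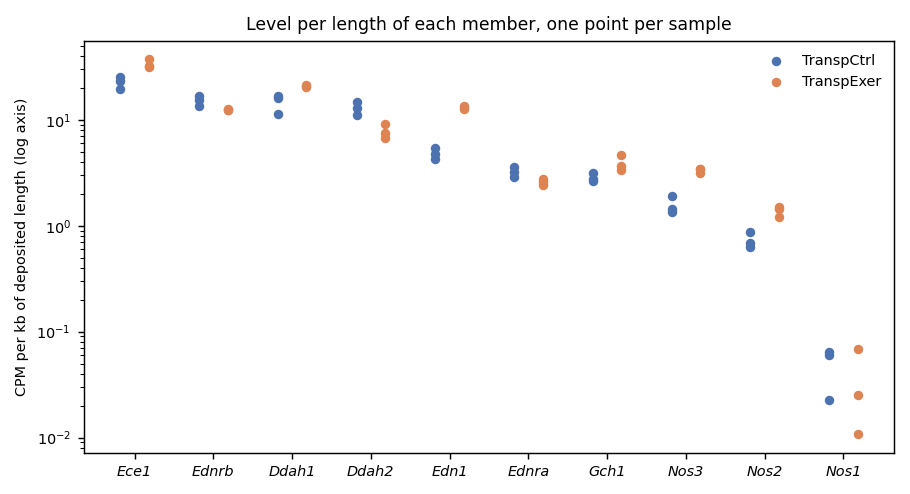
The level of each of the 10 members in CPM per kb is plotted on a log axis, with a point per sample in each group. *Ece1* is the highest member in each group and *Nos1* the lowest, and *Edn1* stands in TranspExer at 12.6 to 13.6 CPM per kb, near *Ednrb*.

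Since *Edn1* and *Nos3* are genes of endothelial cells, they were set beside 18 endothelial marker genes. All 18 rose by adjusted p in edgeR, against 16.6% of all genes, and 16 of them also passed 2-fold, against 3.5%. None was at 0. Their summed level was 304 to 389 CPM in TranspCtrl and 1099 to 1165 CPM in TranspExer. The highest were *Cdh5*, the cadherin of endothelial junctions, at 70.2 ± 17.7 and 284 ± 23.1 CPM (SD, n = 3 per group), *Eng* at 51.8 ± 11.8 and 167 ± 7.09 CPM, and *Pecam1* at 71.6 ± 1.91 and 131 ± 1.13 CPM. Endothelial marker level therefore moved with the rise of *Edn1* and *Nos3*, and its part in that rise was not tested.

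Per 100 CPM of these markers, *Edn1* was at 3.77, 2.36 and 2.78 CPM in TranspCtrl and 2.57, 2.63 and 2.31 CPM in TranspExer. The groups overlapped, with means of 2.97 ± 0.722 and 2.50 ± 0.172 (exact permutation test, two-sided, p = 0.4; n = 3 per group). *Nos3* was at 1.81, 2.01 and 1.64 CPM per 100 CPM of markers in TranspCtrl and 1.29, 1.29 and 1.11 in TranspExer. It was lower in each TranspExer sample, with means of 1.82 ± 0.185 and 1.23 ± 0.103 (exact p = 0.1, the smallest possible). Single markers rose from 1.61-fold (*Tek*) to 6.45-fold (*Sox17*), and *Nos3*, at 2.14-fold, lay within that range. The direction of its ratio to a single marker therefore depends on the marker. Per 100 CPM of the summed markers *Ednrb* went from 11.5 ± 0.229 to 2.96 ± 0.0668 and *Ece1* from 31.0 ± 0.514 to 14.4 ± 0.844 (exact p = 0.1 for each). The marker sum itself rose by 1.67 on the log2 scale, so any gene that rose less is lower on this scale. These 2 tests therefore add nothing to the fold changes, and which cells held these transcripts was not tested.

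**Figure D4:**
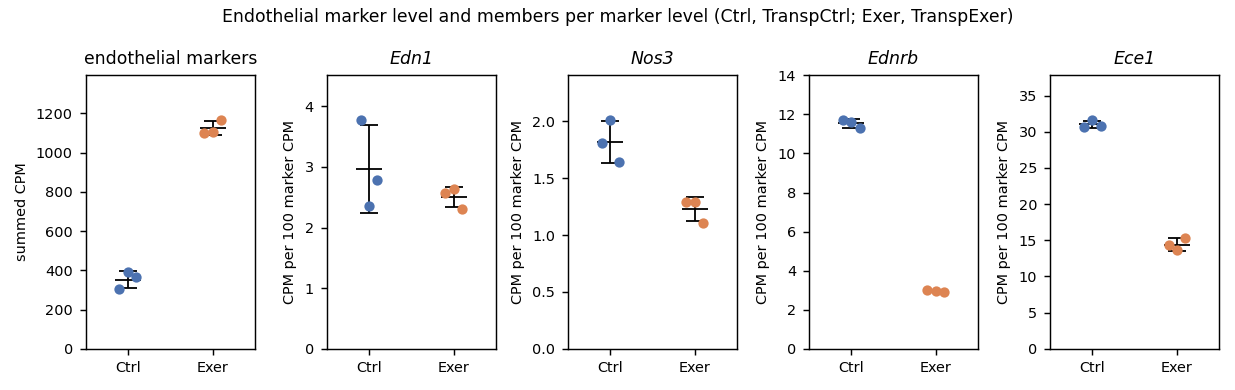
The summed CPM of 18 endothelial markers, and *Edn1*, *Nos3*, *Ednrb* and *Ece1* per 100 CPM of those markers, are plotted by sample on axes that start at 0, with bars of mean ± SD (n = 3 per group). The marker sum is higher in each TranspExer sample, the *Edn1* ratios of the groups overlap, and the *Nos3*, *Ednrb* and *Ece1* ratios are lower in each TranspExer sample.

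Markers of other cells were counted in the same way, where 16.6% of all genes rose and 15.5% fell, and their part in the values of the members was not tested. Of 14 macrophage markers, 3 rose and 3 fell, with sums of 9732 to 14868 CPM in TranspCtrl and 8023 to 8698 in TranspExer. *Lyz2*, *Csf1r* and *Cd68* had the highest means over all samples, but in TranspCtrl alone *Cd68* was below others such as *Mrc1*, at 683 CPM. *Cd68*, a lysosomal protein of macrophages, rose from 479 ± 11.3 to 823 ± 35.5 CPM (adjusted p = 0.000377, edgeR) while *Lyz2* fell. Of 14 stromal markers, led by *Col1a1*, *Col1a2* and *Col3a1*, 2 rose and 9 fell, with sums of 14740 to 22994 and 14153 to 15442 CPM. Of 9 pericyte and smooth muscle markers, 5 rose and 3 fell, with sums of 2540 to 2991 CPM in TranspCtrl and 1848 to 2062 in TranspExer. The list with the strongest fall was that of B and plasma cells, with 7 of 8 lower and none higher in edgeR, at 3640 to 6086 CPM in TranspCtrl and 778 to 827 in TranspExer. Neutrophil markers (4 higher and 1 lower of 10) summed to 3235 to 4312 CPM in TranspCtrl and 5566 to 5784 in TranspExer, and T and NK cell markers (2 higher and 1 lower of 6) to 54.8 to 57.7 and 75.0 to 80.7. Megakaryocyte markers (3 higher of 5) summed to 247 to 311 and 437 to 473 CPM, and adipocyte markers (2 higher of 3 tested) to 53.7 to 107 and 114 to 134 CPM. Without TranspCtrl replicate 1, where 22.1% of all genes rose and 19.6% fell, 7 macrophage markers rose and 3 fell, and 2 stromal markers rose and 11 fell. *Col1a1*, at -0.16 on the log2 scale with all samples (adjusted p = 0.674, edgeR), then fell by 0.44 (adjusted p = 1.54e-05), and TranspCtrl replicate 1 alone had a stromal sum within the range of TranspExer. In that fit 5 pericyte and smooth muscle markers rose and 4 fell, 7 neutrophil markers rose and none fell, 2 T and NK cell markers rose and 2 fell, and 5 megakaryocyte markers rose. The counts for endothelial, B and plasma cell and adipocyte markers were the same as with all samples.

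Around the members, 69 other genes of these pathways were looked up in 8 lists, and 60 of them were tested. By adjusted p in edgeR, 17 rose (28.3%, against 16.6% of all genes) and 10 fell (16.7%, against 15.5%), with a median log2 fold change of 0.07. Without TranspCtrl replicate 1, 20 rose (against 22.1% of all genes) and 15 fell (against 19.6%). With the fold threshold, 6 were upregulated (against 3.5% of all genes) and 5 downregulated (against 5.28%).

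**Figure D5:**
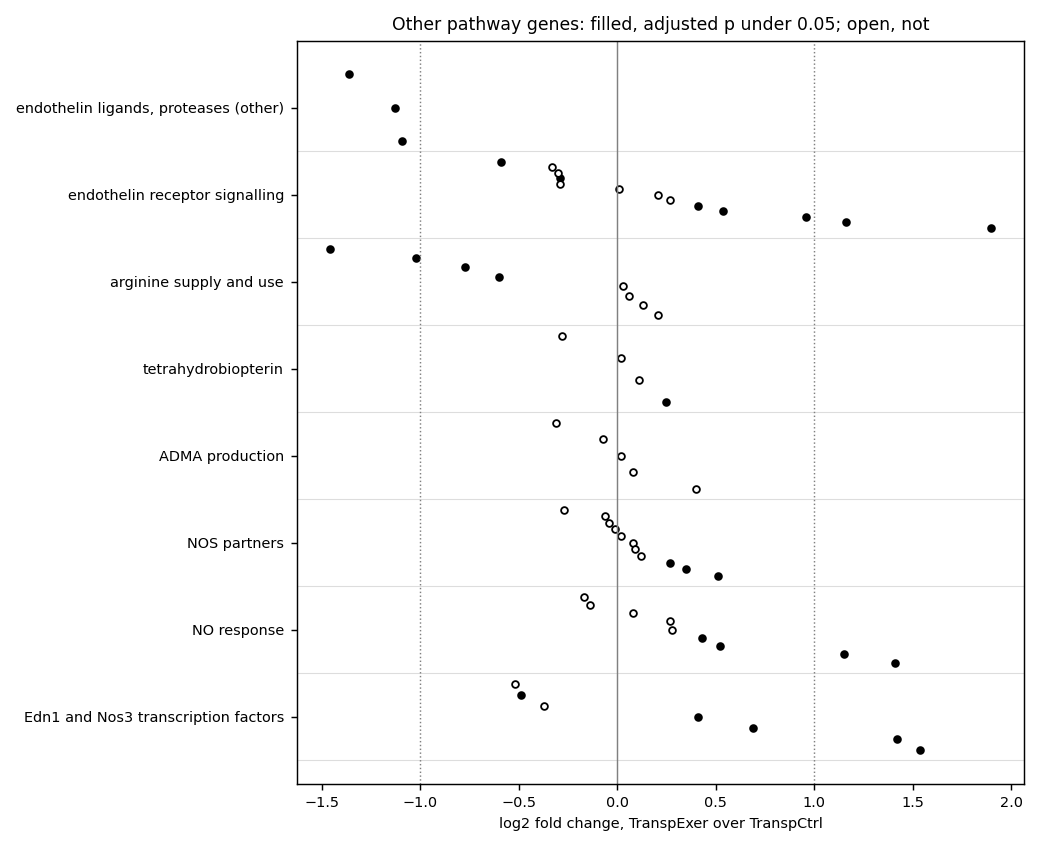
Each point is a tested gene of the 8 lists, placed by its log2 fold change of TranspExer over TranspCtrl, filled where the adjusted p was under 0.05. Dotted lines mark 2-fold. The 3 points of other endothelin ligands and proteases all lie beyond -1, and the filled points of the NO response all lie above 0.

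Of 6 other genes of endothelin supply and removal, 3 had enough counts to be tested. Those 3 were downregulated, against 5.28% of all genes, and none was higher at an unadjusted p under 0.05, against 22.3%. *Mme*, which encodes neprilysin, a protease that degrades endothelins and other peptides, went from 54.9 ± 2.66 to 25.7 ± 1.22 CPM (log2 -1.09, adjusted p = 8.85e-05, edgeR). *Cma1*, the gene of a mast cell protease, fell by 1.36 on the log2 scale (adjusted p = 0.00647), and *Ece2*, a relative of *Ece1*, by 1.13 (adjusted p = 0.0148). These were low, with *Cma1* at 2.40 ± 0.275 CPM and *Ece2* at 2.44 ± 0.524 CPM in TranspCtrl. *Edn2*, *Edn3* and *Kel* had 0 counts in every sample, which allows up to 0.174 CPM in the shallowest.

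Among 13 genes of endothelin receptor signalling, 5 rose and 2 fell, against 16.6% and 15.5% of all genes. Leaving out TranspCtrl replicate 1, 6 rose and 4 fell, against 22.1% and 19.6%. The regulators of G protein signalling, which shorten receptor signals, were among those that rose: *Rgs5* from 5.29 to 19.7 CPM (log2 1.90, adjusted p = 0.000135, edgeR) and *Rgs4* from 5.62 to 12.6 CPM (log2 1.16, adjusted p = 0.000463). *Rgs5* is also in the pericyte marker list. The G protein gene *Gna12* rose from 178 to 345 CPM (log2 0.96, adjusted p = 0.00506).

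Of 8 genes of arginine supply and use, 4 fell and none rose by adjusted p, in edgeR and in DESeq2. Of all genes 15.5% fell and 16.6% rose in edgeR. At an unadjusted p under 0.05 in edgeR, 1 was higher and 4 were lower, against 22.3% and 22% of all genes. Without TranspCtrl replicate 1, 1 rose and 4 fell by adjusted p, against 22.1% and 19.6%. Those that fell included the arginine transporters *Slc7a3* and *Slc7a2*, from 4.43 to 1.61 CPM (log2 -1.46, adjusted p = 0.0011, edgeR) and from 32.2 to 21.2 CPM (log2 -0.60, adjusted p = 0.00199).

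Among all genes, 16.6% rose and 15.5% fell by adjusted p in edgeR, and 22.1% and 19.6% without TranspCtrl replicate 1. At an unadjusted p under 0.05, 22.3% were higher and 22% lower. For tetrahydrobiopterin, 1 of 4 tested genes passed, *Qdpr*, which recycles the cofactor (37.4 and 44.4 CPM, log2 0.25, adjusted p = 0.041 in edgeR). None was lower at an unadjusted p under 0.05, and DESeq2 called none. Of 5 tested genes of ADMA production, edgeR called none by adjusted p (1 higher without TranspCtrl replicate 1), with 1 higher and 1 lower at an unadjusted p under 0.05, and DESeq2 none. Of 11 tested partners of the synthases, 3 rose and none fell in edgeR and in DESeq2, with 1 lower at an unadjusted p under 0.05 and 1 lower by adjusted p without TranspCtrl replicate 1. They included *Cav1*, the caveolin that holds NOS3 inactive at the membrane (69.9 and 99.3 CPM, log2 0.51, adjusted p = 0.00992, edgeR), and *Zdhhc21*, a palmitoyltransferase of NOS3 (log2 0.27, adjusted p = 0.0252).

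Downstream of NO, 4 of 9 tested genes rose and none fell in edgeR and in DESeq2, and none was lower at an unadjusted p under 0.05. *Gucy1a1*, a subunit of the soluble guanylate cyclase that senses NO, rose from 6.70 ± 1.08 to 17.8 ± 0.564 CPM (log2 1.41, adjusted p = 0.000302, edgeR). *Mrvi1*, a substrate of cGMP-dependent protein kinase, rose from 10.3 to 23.0 CPM (log2 1.15, adjusted p = 0.00541), and *Vasp*, another substrate, from 186 to 266 CPM (log2 0.52, adjusted p = 0.0149). Of all tested genes 16.6% rose and 15.5% fell by the same threshold. Markers of endothelial cells, megakaryocytes and part of the pericyte list, such as *Rgs5*, were higher in the same samples, and their part in these values was not tested.

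Of 7 transcription factors known to act on *Edn1* or *Nos3*, 4 rose and 1 fell, against 16.6% and 15.5% of all genes. Leaving out TranspCtrl replicate 1, 4 rose and 3 fell, against 22.1% and 19.6%. *Epas1*, the hypoxia-inducible factor typical of endothelium, rose from 51.7 to 151 CPM (log2 1.54, adjusted p = 0.000258, edgeR), *Gata2* from 4.52 to 12.1 CPM (log2 1.42, adjusted p = 0.000866) and *Fos*, a part of AP-1, from 52.2 to 83.9 CPM (log2 0.69, adjusted p = 0.000683). The factor that fell was *Hif1a*, the broadly expressed hypoxia-inducible factor, from 479 ± 85.0 to 341 ± 11.8 CPM (log2 -0.49, adjusted p = 0.0251, edgeR). The hypoxia-inducible factors thus moved in opposite directions. The shear-responsive factors *Klf2* and *Klf4* did not pass, at log2 -0.52 (adjusted p = 0.161) and -0.37 (adjusted p = 0.0533). *Klf2* was at 16.9, 37.0 and 36.5 CPM in TranspCtrl and at 20.3 to 21.6 CPM in TranspExer, so TranspCtrl replicate 1 alone was below the TranspExer samples. Without that sample both fell, by 0.81 (adjusted p = 1.68e-06, edgeR) and 0.49 (adjusted p = 0.000971) on the log2 scale. *Hif1a*, *Klf2* and *Klf4* were named after their values were seen. Endothelial markers were higher in the samples in which *Epas1* and *Gata2* were higher, and their part in these values was not tested.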

How the data were processed

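Gene expression of BM MSCs was measured by RNA-Seq in 3 TranspCtrl and 3 TranspExer samples, grouped by their labels. The authors deposited expected counts per gene (estimated counts, not normalized, some not whole) for 56980 gene rows, with a gene length. A stranded mRNA kit is named in the labels, but a TruSeq kit in the study's methods, so use of strand is uncertain. The submitters' processing notes name mm10, the build of all coordinates given. The aligner and counting tool are not given in the sources used here. Gene positions and overlaps came from GENCODE M21, in which 52125 gene identifiers were found and 4855 were not, and promoters from RefSeq (GRCm38.p6). The deposited table held 0 per-sample columns outside these 6 samples.

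The counts were rounded, filtered (filterByExpr), normalized (TMM) and tested with edgeR 4.0.16 in R 4.3.3 (quasi-likelihood test, no covariate besides the group), and p-values were adjusted over 15190 genes by Benjamini-Hochberg. DEGs had an adjusted p under 0.05 and at least a 2-fold change, the thresholds of the study's methods. CPM values were scaled by TMM, and errors are SD unless named SE. A floor of 3 counts equals 0.139 to 0.174 CPM and covers counting error only. Shares and ratios were compared with exact permutation tests, two-sided. On simulated counts, edgeR recovered 92% of 200 genes changed by 1.5 on the log2 scale among 15190, and 1.6% of its calls were false. The simulated spread between samples was capped and no sample stood apart, so these rates may not hold for the real samples.

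The members and gene lists were chosen with earlier results of these data known. All members are named, and of each pathway list up to 3 genes with the smallest adjusted p among those past 0.05. Some genes that this rule names are not reported here. *Gucy1a3* and *Gucy1b3*, older symbols, had no row. The 3 genes of a marker list with the highest mean CPM over all samples are named where its level is set beside a result. This was done for endothelial, macrophage and stromal lists. *Mrc1* was named after its values were seen. *Cxcl12*, *Pdgfra* and *Lum* were named after their values were seen. Alternatives were DESeq2 1.42.0, other normalizations and filters, the replicate number as a block, a 2-fold change tested within the model, summed overlapping genes, and each sample left out. Merged exon lengths, and the gene lists without TranspCtrl replicate 1, were added after seeing the data.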

Additional observations from a re-analysis of the deposited data

How the results depend on the processing

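No member changed direction under any alternative run, and of 111 member values 101 stayed on their side of the threshold. With a fold change of 2 tested within the model, the upregulated members went from 2 to 1 (*Edn1*, adjusted p = 0.0163 in edgeR), and all genes to 138 upregulated and 274 downregulated, from 531 and 802. *Ednra* passed an adjusted p of 0.05 in edgeR with upper-quartile factors (log2 -0.39, adjusted p = 0.0396) and with library size only (-0.40, 0.037). *Ednrb* passed with these (-0.37, 0.0136 and -0.38, 0.0125) and with a filter of 1 CPM in 3 samples (-0.32, 0.0316). The cause was not tested. Under the normalizations by upper quartile and library size the median log2 fold change of all genes was -0.10, against -0.02. Leaving out each sample gave log2 fold changes from -0.39 to -0.23 for *Ednra*, -0.38 to -0.21 for *Ednrb*, 0.35 to 0.61 for *Ddah1* and 0.27 to 0.52 for *Gch1*. Over all alternatives *Edn1* stayed between 1.36 and 1.53.

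By read counts instead of counts per kb, the difference in the *Ddah1* share was 12.6 percentage points against 20, and 19.4 with merged exon lengths. The replicate numbers did not pair the samples, since same-numbered samples had correlations of 0.0247, -0.00167 and 0.0416 of their deviations from the group means. With the replicate block 2 members were upregulated and 6 passed the adjusted p, and 519 genes were upregulated and 767 downregulated. At this depth *Nos1* could not be tested, and *Cma1*, *Ece2* and *Lum* rest on few counts.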
